A study of Mus musculus with 127 samples.

Results

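Long-term haematopoietic stem cells (LT) and multipotent progenitors (MPP) sorted from the bone marrow of the same mouse were compared at 0 h, before culture. The samples were all 0 h libraries of these populations, under either treatment label, which came to 20 of the 127 deposited libraries, 11 of LT and 9 of MPP. A pair of LT libraries of old mouse 2 held 17 and 37 counts and were left out as near-empty. The other 18 were summed over technical repeats to 12 samples, 1 LT and 1 MPP for each of 6 mice. These were young mice 1, 2, 3 and 4 and old mice 2 and 4. Strain, sex, age in weeks and the surface markers of the sort are not given in the sources used here. For old mouse 2 and young mice 1 and 2, labels at 0 h name LPS and Pam3csk4, ligands of Toll-like receptors. Labels are of no treatment for part of the LT libraries of old mouse 2 and for old mouse 4 and young mice 3 and 4. At 0 h no time with ligand had passed, so all were read as unexposed. The same mouse number was read as 1 animal sorted into several populations. Polyadenylated RNA of each sorted population was read in bulk with SMART-seq2, a protocol that copies whole transcripts from very few cells.

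Long-term stem cells are rare, mostly resting cells that can rebuild the blood system over the long term. Through short-term stem cells (ST) they give rise to multipotent progenitors, which divide more and have lost lasting self-renewal. Along this path mouse cells gain the surface proteins Cd34 and Flt3, and a part of the progenitors begins to express lymphoid genes such as Dntt. Stem cells in turn carry more of the junction protein Esam. Proteins such as Cd34, Flt3, Cd48 and Slamf1 are in common use for sorting these populations. If they were used here, a difference in their transcripts cannot be told apart from the gate.

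The 12 samples held between 1.90 and 11.8 counts in units of 1e6. The number of genes with a count was lower in LT than in MPP in each of the 6 mice, at 10101 to 13505 in LT and 11750 to 14096 in MPP. Repeats of a sample agreed less well in LT than in MPP. Pearson's r across genes, of log2(CPM + 1), was 0.38, 0.67 and 0.87 between the LT repeats of young mouse 1, young mouse 2 and old mouse 2, against 0.89, 0.92 and 0.96 between their MPP repeats. These correlations used CPM before TMM scaling. Unless stated, CPM elsewhere are counts per 1e6 of the TMM-scaled total. In LT of young mouse 1, the repeats held 91.4 and 22.8 CPM of Tgm2, 86.6 and 0 CPM of Sult1a1, and 215 and 5.25 CPM of Cd34 before TMM scaling. Transcripts of late neutrophil granule proteins, such as Ngp and Ltf, set the mice apart. Summed over 14 genes, they reached 289 CPM in LT of young mouse 3 against 124 CPM in its MPP. In the other 5 mice they reached 22456 to 81851 CPM in LT and 19187 to 85644 CPM in MPP.

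Among 10907 genes tested within mouse with edgeR, 3 rose in LT over MPP (0.0275%) and 2 fell (0.0183%) at an adjusted p below 0.05. Those that rose were Tgm2, Sult1a1 and Ptrf, and those that fell were Cd34 and Ramp1. A wider set of 96 genes passed both of 2 other tools, DESeq2 and limma voom, with 68 higher in LT (0.623%) and 28 lower (0.257%). All 5 genes that edgeR called were among them. Without the mouse as a block edgeR called 1, Tgm2. In every mouse, 196 genes were higher in LT (1.8%) and 425 were lower (3.9%). The median log2 difference over all genes tested was -0.16, and 36.7% of genes had a positive one.

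Tgm2, transglutaminase 2, an enzyme that cross-links proteins, had the lowest adjusted p. It stood at 52.0, 214, 415, 71.1, 469 and 88.3 CPM in LT of young mice 1 to 4, old mouse 2 and old mouse 4, against 2.54, 9.44, 7.65, 3.25, 18.0 and 7.34 CPM in their MPP. The lowest LT sample was thus above the highest MPP sample. The log2 difference was 4.59 ± 0.29 (SE, edgeR adjusted p = 5.8e-04). Tgm2 passed in each of the 6 fits that left out 1 mouse.

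Sult1a1, a sulfotransferase of small phenols, stood at 37.5, 83.8, 93.5, 10.8, 373 and 45.6 CPM in LT of the same mice in the same order, against 0, 2.94, 1.67, 0.41, 2.19 and 0 CPM in MPP. The groups did not overlap, and old mouse 2 held the highest LT value. The log2 difference was 6.57 ± 0.72 (SE, edgeR adjusted p = 0.0255). Sult1a1 is also on the list of genes known to be higher in stem cells of aged mice.

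Ptrf, now named Cavin1, encodes a coat protein of caveolae, small pits of the cell membrane. Its LT values were 142, 224, 528, 69.4, 615 and 59.3 CPM and its MPP values 12.6 to 52.2 CPM (median 41.7). No LT sample reached down to the MPP range (2.56 ± 0.33, edgeR adjusted p = 0.0496).

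Cd34, a sialomucin of progenitors and of endothelium, fell to 95.9, 139, 301, 84.1, 98.4 and 107 CPM in LT, against 593, 887, 1390, 168, 841 and 279 CPM in MPP. Within every mouse LT was lower, although LT of young mouse 3 stood above MPP of young mouse 4 and of old mouse 4. The log2 difference was -2.17 ± 0.28 (edgeR adjusted p = 0.0496). Ramp1, which together with a partner forms the receptor for the neuropeptide CGRP, fell to 76.7 to 129 CPM in LT (median 113), against 167 to 364 CPM in MPP (median 288). Its groups did not overlap, and the log2 difference was -1.37 ± 0.15 (edgeR adjusted p = 0.0255).

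The calls of Sult1a1, Ptrf, Cd34 and Ramp1 depended on which mice were in the fit. Without young mouse 1, Sult1a1, Ptrf and Ramp1 still passed, at edgeR adjusted p-values of 0.0066, 0.0407 and 0.0477. Cd34 missed the threshold there, at 0.0671. Without any one of the other 5 mice, all 4 genes missed the threshold, with adjusted p-values of 0.0713 to 0.376 and unchanged direction. With the 4 young mice alone, Tgm2 had an adjusted p of 0.0559 and no gene passed.

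**Figure D1:**
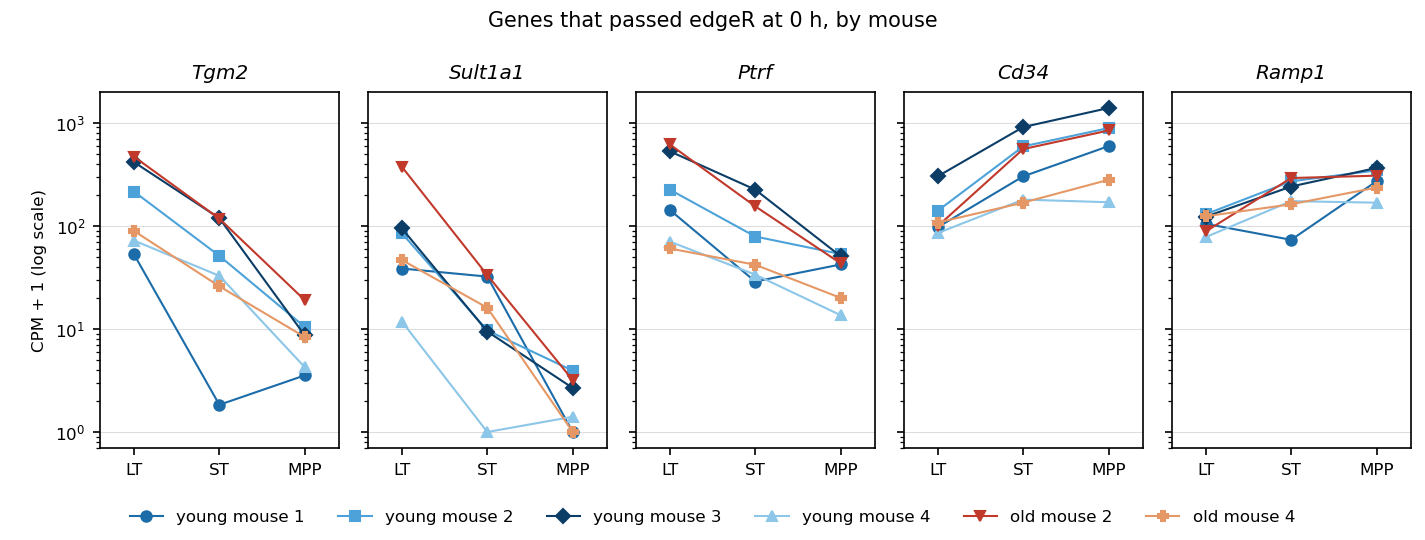
CPM + 1 on a log scale at 0 h in LT, ST and MPP for the 5 genes that edgeR called, with 1 point per mouse and cell type and a line joining the samples of a mouse. Tgm2, Sult1a1 and Ptrf are higher and Cd34 and Ramp1 lower in LT than in MPP in all 6 mice.

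The promoters of these genes are shown because they are the sequences next to the genes that passed. RefSeq's table (GRCm38.p6) gave one for 4 of the 5, from 250 bases before to 50 after the start, and Tgm2 is named only. The letters AGATAA, known as a motif of GATA factors, and GAGGAA, known as one of PU.1 and other ETS factors, were searched on both strands. AGATAA was in 0 of the 4 and in 11.4% of 27025 promoters of the same length. GAGGAA was in 3 of the 4 and in 28.3% of the 27025. Capitals mark GAGGAA, or TTCCTC where it lies on the other strand. A match is a description of the letters, not a site of binding.
Sult1a1 promoter, chr7:126676369-126676668, minus strand: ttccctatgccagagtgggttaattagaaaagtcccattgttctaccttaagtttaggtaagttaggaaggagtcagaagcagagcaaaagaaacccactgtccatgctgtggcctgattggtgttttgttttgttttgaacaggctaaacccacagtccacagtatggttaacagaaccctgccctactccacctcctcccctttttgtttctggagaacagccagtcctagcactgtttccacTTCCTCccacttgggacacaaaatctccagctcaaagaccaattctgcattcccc
Ptrf (Cavin1) promoter, chr11:100970568-100970867, minus strand: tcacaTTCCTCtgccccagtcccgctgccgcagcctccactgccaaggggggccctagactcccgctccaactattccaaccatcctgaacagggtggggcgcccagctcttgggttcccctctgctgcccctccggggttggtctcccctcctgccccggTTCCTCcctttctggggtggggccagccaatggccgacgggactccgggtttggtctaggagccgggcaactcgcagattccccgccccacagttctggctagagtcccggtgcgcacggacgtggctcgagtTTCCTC
Ramp1 promoter, chr1:91179572-91179871, plus strand: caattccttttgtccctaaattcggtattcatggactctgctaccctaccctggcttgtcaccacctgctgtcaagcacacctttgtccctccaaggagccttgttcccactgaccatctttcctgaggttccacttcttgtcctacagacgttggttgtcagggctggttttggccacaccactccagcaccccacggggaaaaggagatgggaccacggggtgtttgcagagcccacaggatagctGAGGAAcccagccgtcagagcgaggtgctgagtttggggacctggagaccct
Cd34 promoter, chr1:194938571-194938870, plus strand: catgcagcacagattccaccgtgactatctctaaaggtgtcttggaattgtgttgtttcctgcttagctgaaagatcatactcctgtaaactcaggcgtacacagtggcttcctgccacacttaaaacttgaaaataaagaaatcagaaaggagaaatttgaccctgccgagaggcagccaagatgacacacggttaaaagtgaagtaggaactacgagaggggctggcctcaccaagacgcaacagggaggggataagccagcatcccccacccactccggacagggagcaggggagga

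The remaining markers lay in the direction of the population each stands for, although edgeR called none of them. The markers were chosen with earlier results of these data known, so their direction is a description. Esam, the junction protein of stem cells and endothelium, ranged from 14.1 to 208 CPM in LT (median 105), against 0.41 to 27.7 CPM in MPP (median 13.9). Its log2 difference was 3.40 ± 0.51 (edgeR adjusted p = 0.135). Mllt3, a chromatin reader that maintains stem cells, held 102 ± 78.7 CPM in LT and 13.7 ± 7.22 CPM in MPP (SD, n = 6 mice each). Gfi1b, a repressor active in stem cells and in the megakaryocyte and erythroid lineages, held 77.8 to 117 CPM in LT, against 24.1 to 70.8 CPM in MPP, with no overlap.

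Flt3, the cytokine receptor of progenitors, stood at 134, 22.0, 26.5, 41.5, 12.7 and 52.9 CPM in LT of young mice 1 to 4, old mouse 2 and old mouse 4. In MPP it stood at 348, 448, 957, 75.5, 329 and 161 CPM. Dntt, the DNA polymerase that adds bases at antigen receptor joints, ranged from 0.65 to 21.6 CPM in LT and from 39.4 to 789 CPM in MPP. LT was below MPP in every mouse for both genes, and the lowest MPP values came from young mouse 4 and old mouse 4. DESeq2 and limma voom called Esam, Mllt3, Gfi1b, Flt3 and Dntt, each in the direction given.

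**Figure D2:**
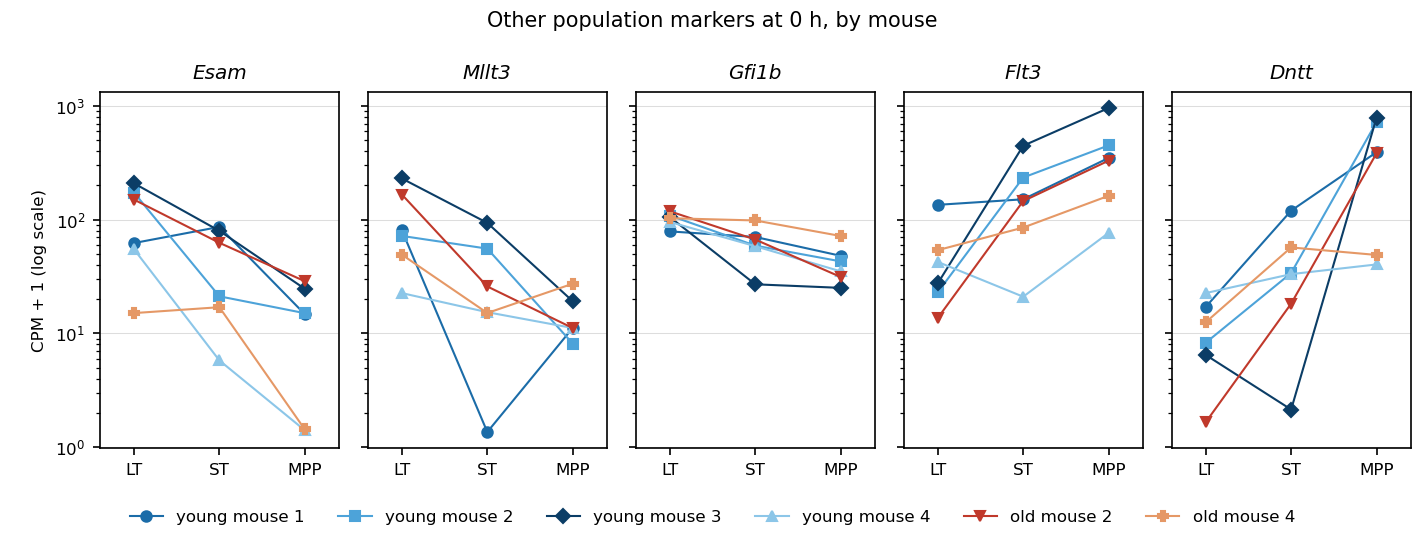
CPM + 1 on a log scale at 0 h in LT, ST and MPP for Esam, Mllt3, Gfi1b, Flt3 and Dntt, with 1 point per mouse and cell type and a line joining the samples of a mouse. In all 6 mice Esam, Mllt3 and Gfi1b are higher and Flt3 and Dntt lower in LT than in MPP.

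Transcription factors of stem cells had values in both directions. Of 31 tested, 21 had a positive and 10 a negative difference, and the median log2 difference was 0.14. EdgeR called 0 and both other tools called 5, all higher in LT. Among all genes tested, 36.7% had a positive difference and both other tools called 0.623% higher in LT. The genes named next all had a positive difference. Mycn, a Myc relative that supports stem cell self-renewal, held 93.9, 189, 319, 50.6, 405 and 44.8 CPM in LT, against 43.0, 55.8, 84.8, 5.68, 46.5 and 4.75 CPM in MPP. It was 1 of the genes just outside edgeR's threshold (2.32 ± 0.32, adjusted p = 0.0779). Mecom, a zinc finger factor required for stem cell maintenance, averaged 74.0 ± 58.1 CPM in LT and 14.3 ± 12.4 CPM in MPP, and was higher in LT in 5 of 6 mice. Ndn, an imprinted growth suppressor, was higher in LT in 4 mice and at 0 in both populations of young mouse 4 and old mouse 4. Meis1, a homeobox factor, averaged 180 ± 186 CPM in LT and 109 ± 73.3 CPM in MPP.

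Surface genes of stem cells had a median log2 difference of 1.05 over 25 tested, with 20 positive. EdgeR called 0 and both other tools called 8, all higher in LT. The shares of all genes tested were 36.7% positive and 0.623% called higher by both other tools. Fgd5, a stem cell reporter gene, averaged 31.4 ± 25.2 CPM in LT and 3.11 ± 2.28 CPM in MPP. Tie1, a receptor of endothelium and stem cells, averaged 97.5 ± 84.1 CPM in LT and 21.8 ± 13.3 CPM in MPP. Abcg2, the pump behind the side population of stem cells, held 34.7 to 127 CPM in LT and 13.8 to 38.2 CPM in MPP. Slamf1, the CD150 antigen, averaged 29.2 ± 27.2 CPM in LT and 0.88 ± 1.03 CPM in MPP, but was at 0 in LT of young mouse 1. Both tools also called Ctnnal1 and Clca1. Kit, the stem cell factor receptor that both populations are known to carry, averaged 526 ± 480 CPM in LT and 478 ± 272 CPM in MPP.

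Genes of the megakaryocyte lineage, which makes platelets, and genes known to be higher in aged stem cells were mostly higher in LT. Of 24 megakaryocyte genes tested, 22 had a positive difference (median 0.90), and both other tools called 5, all higher in LT. The shares of all genes tested were 36.7% positive and 0.623% called higher by both other tools. Mmrn1, a protein of platelet granules, stood at 40.4, 171, 243, 38.7, 241 and 23.9 CPM in LT, against 10.3, 10.7, 27.7, 10.1, 15.3 and 31.5 CPM in MPP. Old mouse 4 was the exception to its direction. Nfe2, a factor of platelet formation, held 214 to 326 CPM in LT and 139 to 243 CPM in MPP, and LT was higher in every mouse. Vwf, the clotting protein von Willebrand factor, was named after its values were seen. It reached 289 CPM in LT of old mouse 2 and 113 CPM in LT of young mouse 3, and was at 0 in LT of young mice 1 and 4. Its MPP values were between 0.42 and 23.7 CPM.

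Of 20 genes of aged stem cells tested, 17 had a positive difference (median 2.08), against 36.7% of all genes tested. The list's median ratio was above 0 in all 6 mice, and edgeR called 1, Sult1a1. Clu, the chaperone clusterin, averaged 24.2 ± 28.2 CPM in LT and 2.86 ± 2.78 CPM in MPP. Aldh1a1, an aldehyde dehydrogenase that makes retinoic acid, averaged 55.8 ± 37.8 CPM in LT and 20.1 ± 20.7 CPM in MPP. Socs2, a brake on cytokine signalling, held 14.5 to 88.3 CPM in LT and 1.89 to 12.1 CPM in MPP. Of 25 erythroid genes tested, 21 had a positive difference (median 0.83), with Car2, carbonic anhydrase 2, at 707 ± 215 CPM in LT and 454 ± 96.9 CPM in MPP. Of these erythroid genes, 1 was higher in LT in all 6 mice, against 1.8% of all genes tested, and edgeR called 0.

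Most surface genes of progenitors and genes of lymphoid priming had a negative difference, as did 63.3% of all genes tested. Of 25 progenitor surface genes, 21 had a negative difference (median -0.60), and edgeR called 1, Cd34. Cd48, a SLAM family receptor, held 4.10 to 98.3 CPM in LT (median 66.7), against 94.6 to 134 CPM in MPP (median 112), and was lower in LT in every mouse. Of 28 lymphoid priming genes tested, 21 had a negative difference (median -0.48), edgeR called 0, and both other tools called Dntt and Flt3. Cnn3, an actin-binding calponin, averaged 20.8 ± 17.7 CPM in LT and 65.5 ± 21.8 CPM in MPP. Sox4, a factor of early B cell development, averaged 7.12 ± 6.64 CPM in LT and 18.0 ± 8.06 CPM in MPP. Cd48, Cnn3 and Sox4 were named after their values were seen, and each was lower in LT in all 6 mice. Of the tested members, 3 of 25 progenitor surface and 4 of 28 lymphoid genes were, against 3.9% of all genes tested. Members of high level varied more. Cd24a, of the progenitor list, averaged 562 ± 210 CPM in LT and 518 ± 216 CPM in MPP and was higher in LT in 4 mice. Irf8, of the lymphoid list, averaged 225 ± 152 CPM in LT and 214 ± 79.1 CPM in MPP and was higher in LT in 3 mice.

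Genes of S phase, G2 and mitosis were lower in LT nearly throughout. Of 48 tested, 47 had a negative difference (median -0.47), 8 were lower in all 6 mice, edgeR called 0, and both other tools called 3. The shares of all genes tested were 63.3% negative, 3.9% lower in all 6 mice and 0.257% called lower by both other tools. Mcm7, a subunit of the replicative helicase, stood at 286, 345, 309, 387, 255 and 444 CPM in LT, against 466, 559, 588, 424, 526 and 635 CPM in MPP. Cenpf, a kinetochore protein of dividing cells, held 24.0 to 51.2 CPM in LT and 69.8 to 82.4 CPM in MPP, with no overlap. Tubb5, a tubulin, averaged 2125 ± 515 CPM in LT and 2917 ± 390 CPM in MPP. Summed over the 48 genes, LT held 6436 CPM in young mouse 3 and 7217 CPM in old mouse 2, against 13356 and 13124 CPM in their MPP. In young mouse 1 the sums were 12682 CPM in LT and 12795 CPM in MPP.

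Myc, a driver of growth, was lower in LT in every mouse, at 148 to 345 CPM in LT and 220 to 654 CPM in MPP. Ribosome biogenesis genes were lower in LT with a median of -0.24 over 29 tested, 26 of them negative. Npm1, a nucleolar chaperone, averaged 1187 ± 170 CPM in LT and 1410 ± 216 CPM in MPP and was lower in all 6 mice. Respiratory chain genes had a median of -0.22 over 39 tested, 35 of them negative, with Atp5b at 942 ± 221 CPM in LT and 1042 ± 159 CPM in MPP. Both medians lay close to the -0.16 of all genes. No member of either list passed edgeR or both other tools.

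**Figure D3:**
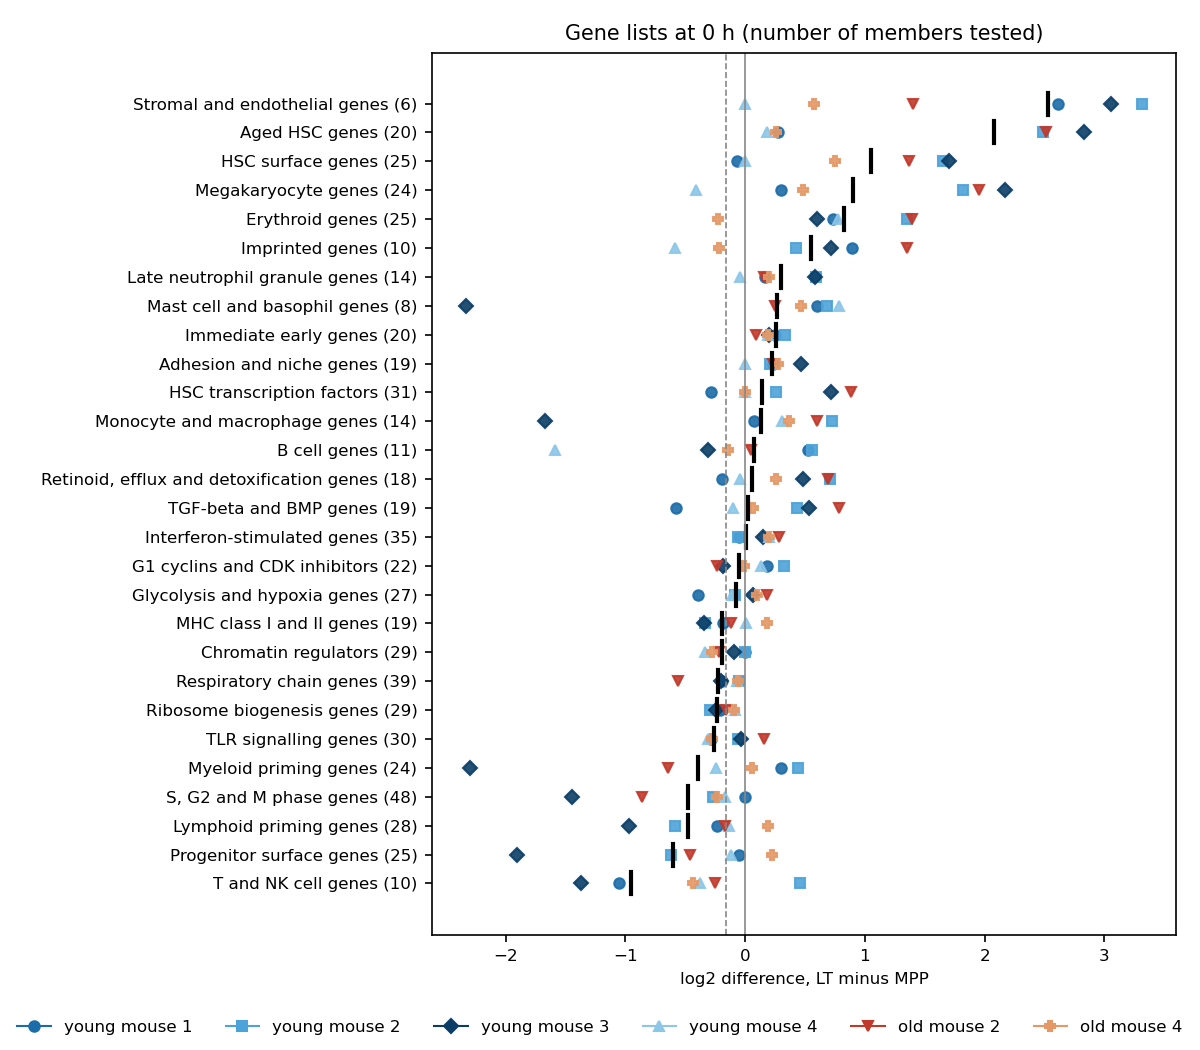
Log2 difference of LT minus MPP at 0 h for 28 gene lists, with the number of members tested in brackets. Points are the median over members of the within-mouse log2 ratio of CPM + 1 in each mouse, black bars the median of the members' fitted differences, and the dashed line the median of all genes tested (-0.16). Lists of stem cell surface, megakaryocyte and aged stem cell genes lie to the right, and progenitor surface, lymphoid and S, G2 and M phase genes to the left.

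The size of the differences varied between mice. In young mouse 3 the median ratio was 1.70 for stem cell surface genes, 2.17 for megakaryocyte genes and -1.45 for S, G2 and M phase genes. In young mouse 4 the same medians were 0.00, -0.41 and -0.16. Young mouse 1 gave -0.07, 0.30 and 0.00. Young mouse 2 gave 1.65, 1.82 and -0.27. Old mouse 2 gave 1.37, 1.96 and -0.86, and old mouse 4 gave 0.75, 0.48 and -0.24. Late neutrophil granule genes summed to 63718, 36263, 289, 81851, 22816 and 22456 CPM in LT of young mice 1 to 4, old mouse 2 and old mouse 4. Whether the granule transcripts bear on the size of the differences was not tested.

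The summed level of myeloid genes did not differ in a common direction between mice. Of 24 myeloid priming genes tested, 18 had a negative difference (median -0.40), as did 63.3% of all genes tested. EdgeR and both other tools called 0. The list's median ratio was above 0 in 3 mice and below 0 in 3. In young mouse 3 the summed level was 752 CPM in LT and 3593 CPM in MPP. In the other mice it was 10588 to 34134 CPM in LT and 12888 to 40950 CPM in MPP, and LT was higher in 3 of them. Mpo, the peroxidase of primary granules, averaged 4945 ± 4560 CPM in LT and 5924 ± 3754 CPM in MPP. Of the 14 late granule genes, edgeR called 0, and Ltf, lactoferrin, was the one that both other tools called. Ltf averaged 6509 ± 5592 CPM in LT and 5080 ± 5560 CPM in MPP and was higher in LT in all 6 mice. Ngp averaged 8329 ± 6655 CPM in LT and 7186 ± 7099 CPM in MPP. In bulk samples, fewer cells of a type and less RNA per cell cannot be told apart.

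The summed level of stromal and endothelial genes was higher in LT than in MPP in each of the 6 mice. Of 15 genes on that list, 6 were tested, 5 with a positive difference. Summed over the list, LT held 777, 1601, 272, 93.2, 210 and 84.5 CPM in young mice 1 to 4, old mouse 2 and old mouse 4, against 485, 172, 167, 74.7, 118 and 38.4 CPM in MPP. ST held 20.2 to 160 CPM. No member was at 0 in all LT and MPP samples, although Dcn and Lum were at 0 in every LT sample. Cxcl12, a chemokine of stromal cells, stood at 361 and 511 CPM in LT of young mice 1 and 2, at 32.2 CPM in young mouse 3, and at 0 to 5.02 CPM in the other 3 mice. In MPP it stood at 0 to 10.5 CPM. Plvap, a protein of fenestrated endothelium named after its values were seen, was at 90.0 and 176 CPM in LT of young mice 1 and 2. It held 1.31 to 11.4 CPM in LT of the other mice and 0 to 4.75 CPM in MPP.

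Cldn5, a junction protein of endothelium on the same list, stood at 28.8, 342, 24.0, 0, 79.0 and 9.39 CPM in LT of young mice 1 to 4, old mouse 2 and old mouse 4, against 0 to 2.46 CPM in MPP. Tgm2, Ptrf, Esam and Tie1 are also known from endothelium, and the part of other cells in their differences was not tested. In LT of old mouse 2, where Tgm2, Ptrf and Sult1a1 had their highest values, Plvap was at 1.31 CPM, Cxcl12 at 5.02 CPM and Cldn5 at 79.0 CPM. In LT of young mouse 4, Tgm2 was at 71.1 CPM and Cldn5 at 0. Before TMM scaling, Plvap was at 10.5 CPM and Cxcl12 at 4.21 CPM in that sample. A fit without young mice 1 and 2 was chosen after seeing the data. LT of the 4 mice left still held 0 to 79.0 CPM of Cldn5, so this fit cannot tell the part of other cells. In it, Tgm2 (4.67) and Sult1a1 (6.71) passed with an edgeR adjusted p of 0.0132 each, and so did Mycn (2.78, adjusted p = 0.0478). Ptrf (2.90, adjusted p = 0.148), Cd34 (-1.94, adjusted p = 0.409) and Ramp1 (-1.37, adjusted p = 0.296) did not pass in these 4 mice, nor did Esam (3.61, adjusted p = 0.378) and Tie1 (1.71, adjusted p = 0.589).

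**Figure D4:**
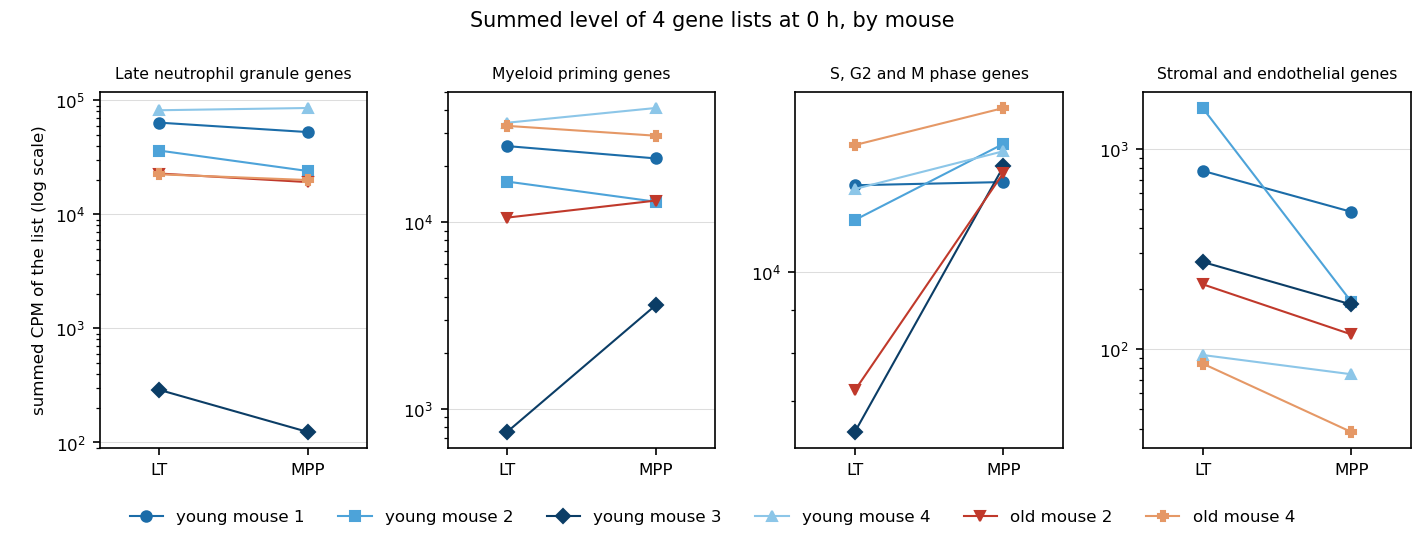
Summed CPM on a log scale of the late neutrophil granule, myeloid priming, S, G2 and M phase, and stromal and endothelial lists in LT and MPP at 0 h, with a line for each mouse. Granule sums differ far more between young mouse 3 and the other mice than between LT and MPP of a mouse, and stromal sums are highest in LT of young mice 1 and 2.

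In the other lists edgeR called 0 members apart from Tgm2 among the adhesion genes and Sult1a1 among the detoxification genes. Interferon-stimulated genes had a median of 0.01 over 35 tested, with Ifih1, an RNA sensor, and Gbp2, a GTPase, higher in LT in all 6 mice. Ifih1 averaged 64.3 ± 35.4 CPM in LT and 32.6 ± 14.7 CPM in MPP, and Gbp2 averaged 78.3 ± 51.3 CPM in LT and 42.0 ± 15.9 CPM in MPP. Genes of Toll-like receptor signalling had a median of -0.26 over 30 tested and MHC genes -0.19 over 19. Immediate early genes had a median of 0.25 over 20, with 15 positive and 5 negative, and the list's median ratio was above 0 in each mouse. None was higher in LT in all 6 mice. Myc, which is on this list, was lower in LT in all 6 mice and was the 1 member that both other tools called. Junb, an AP-1 subunit, averaged 201 ± 50.9 CPM in LT and 152 ± 48.5 CPM in MPP. Glycolysis and hypoxia genes had a median of -0.08 over 27, with Gapdh at 2071 ± 492 CPM in LT and 2429 ± 202 CPM in MPP. G1 cyclins and CDK inhibitors had a median of -0.05 over 22, with Cdk4 at 313 ± 74.4 CPM in LT and 455 ± 141 CPM in MPP. Among detoxification genes, Txnip, an inhibitor of thioredoxin, averaged 204 ± 110.4 CPM in LT and 108 ± 39.0 CPM in MPP and was higher in LT in every mouse. Medians were 0.22 for 19 adhesion genes, 0.06 for 18 detoxification genes, 0.03 for 19 TGF-beta and BMP genes, 0.55 for 10 imprinted genes and -0.20 for 29 chromatin regulators. Among lists of other cells, medians were 0.26 for 8 mast cell genes, 0.13 for 14 monocyte and macrophage genes, 0.08 for 11 B cell genes and -0.95 for 10 T and NK cell genes.

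ST, the population between the 2 in the usual hierarchy, lay between them for most of these genes. All 5 genes that edgeR called had an ST mean between the LT and MPP means. Of the 96 genes that both other tools called, 86 did, against 34.9% of all genes tested. Genes chosen for a large difference leave more room in between, so the shares are a description. Tgm2 stood at 0.84, 50.2, 118, 31.8, 116 and 24.9 CPM in ST of young mice 1 to 4, old mouse 2 and old mouse 4. Cd34 in ST was at 167 to 908 CPM. In ST of young mouse 1, Tgm2 was below the MPP of that mouse, and in young mouse 4, Cd34 was above it.

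Libraries taken after 0 h from the same mice hold the same contrast in samples that the 0 h comparison did not use. Per mouse and population, 3 to 6 later times were summed, between 0.5 and 12 h. By then, old mouse 2 and young mice 1 to 3 had cells in LPS at 100 ng/ml and Pam3csk4 at 1 ug/ml, and young mouse 4 and old mouse 4 had cells without ligand. Of 12546 genes tested, edgeR called 0 (0%) at an adjusted p below 0.05. At an unadjusted p below 0.05, 402 were higher in LT (3.2%) and 548 lower (4.37%), and DESeq2 called 278.

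All 5 genes called at 0 h kept their direction after 0 h. The later log2 difference was 1.03 ± 0.33 for Tgm2, 3.79 ± 0.89 for Sult1a1, 1.91 ± 0.28 for Ptrf, -1.75 ± 0.29 for Cd34 and -0.74 ± 0.23 for Ramp1 (SE, edgeR adjusted p = 0.117 to 0.532). Ptrf held 53.6 to 606 CPM in LT (median 200) and 15.6 to 84.0 CPM in MPP (median 62.9), and was higher in LT in all 6 mice. Cd34 held 59.1 to 229 CPM in LT (median 72.1) and 87.6 to 794 CPM in MPP (median 427), and was lower in LT in all 6 mice. Tgm2 held 46.8 to 283 CPM in LT (median 199) and 24.8 to 268 CPM in MPP (median 57.0), and was higher in LT in 5 mice.

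In a fit added after seeing the data, Tgm2 was the one gene for which edgeR called a change in the difference between LT and MPP after 0 h, and DESeq2 called 7 genes. The difference was -3.56 ± 0.47 relative to 0 h on the log2 scale, a smaller excess in LT (edgeR adjusted p = 0.0239), 1 of 11248 genes tested (0.00889%). The call was lost without any one of 5 mice, old mouse 2 being the exception. The median Tgm2 level in LT was 199 CPM after 0 h and 151 CPM at 0 h, and in MPP 57.0 CPM after 0 h and 7.49 CPM at 0 h.

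Of the 68 genes that both other tools called higher in LT at 0 h, 67 were tested after 0 h and 65 kept their sign, 36 of them with an unadjusted edgeR p below 0.05. Of the 28 called lower, 26 kept their sign, 15 of them with an unadjusted p below 0.05. Over all genes tested at both, 62.6% kept their sign, 51.1% of those higher and 69.2% of those lower in LT at 0 h. The called genes were chosen on differences in the same mice, so the shares are a description. Median log2 differences of the 67 were 1.25 after 0 h and 2.14 at 0 h, and those of the 28 were -0.78 after 0 h and -1.54 at 0 h. Gfi1b was 1 of the genes that turned, at -0.43 ± 0.33 after 0 h. Flt3 was at -4.84 ± 0.99 after 0 h (edgeR adjusted p = 0.28) and lower in LT in all 6 mice. Gata2, a zinc finger factor of stem cells, Itgb3, an integrin of platelets, and Il6st, a shared cytokine receptor subunit, had the lowest p-values after 0 h among genes also tested at 0 h, and were named after their values were seen. Gata2 held 92.4 to 283 CPM in LT and 34.0 to 115 CPM in MPP (1.25 ± 0.13, edgeR adjusted p = 0.0545), and LT was higher in all 6 mice.

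**Figure D5:**
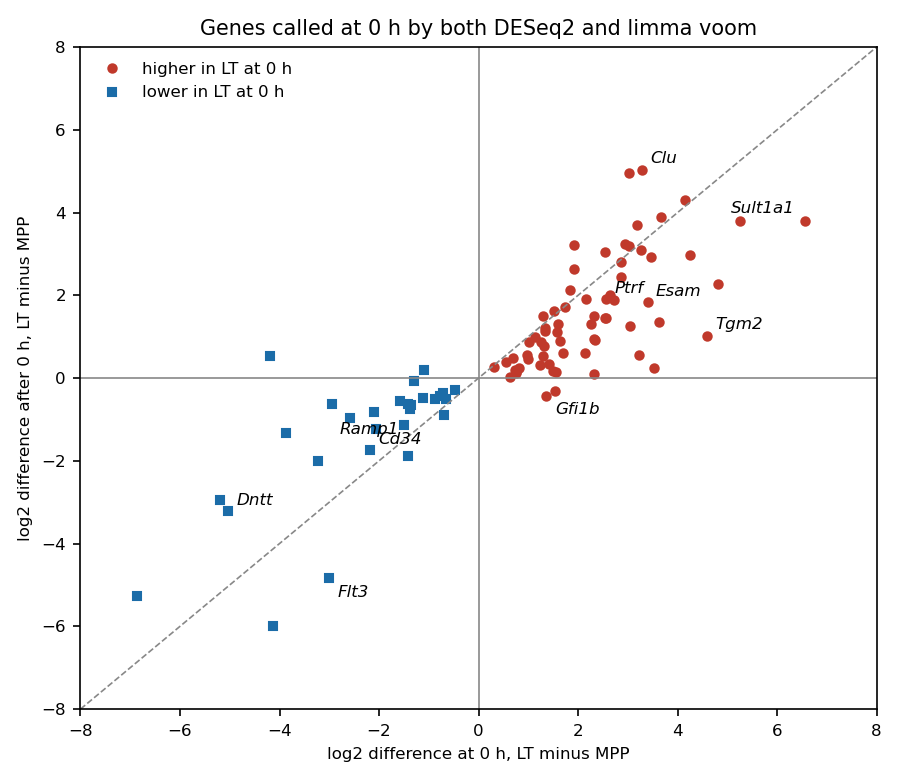
Log2 difference of LT minus MPP after 0 h (vertical) and at 0 h (horizontal) for genes that both DESeq2 and limma voom called at 0 h, 1 point per gene, 67 higher and 28 lower in LT. The dashed line marks equal differences. All but 4 points lie in the quadrants of unchanged sign, and Tgm2 lies well below the line.

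Whether the difference between LT and MPP at 0 h itself differed between the 2 old and 4 young mice was tested with the interaction of cell type and age. edgeR called 0 of 10907 genes (0%), with 146 at an unadjusted p below 0.05, and DESeq2 called 2 (0.0183%), both haemoglobins of red cells. Hba-a1 stood at 219 and 340 CPM in LT of old mice 2 and 4, against 245 and 340 CPM in their MPP. In young mice 1 to 4 it stood at 1003, 1779.5, 16.9 and 900 CPM in LT, against 532, 606, 6.45 and 314 CPM in MPP. LT was above MPP in all 4 young mice and not above it in either old mouse. The other, listed as Beta-s, had a difference lower by 2.33 ± 0.42 in old mice (edgeR adjusted p = 0.999).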

How the data were processed

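The authors deposited 1 table of expected counts by gene symbol for 127 libraries. Per the submitters' processing notes these come from RSEM (version not stated) on genome build mm9. The deposited expected counts are not scaled to depth, and 89.5% of the values are whole numbers. Aligner, annotation and filters are not given in the sources used here, and whether counting used strand is not either. Libraries under 1000 counts were dropped, technical repeats were summed per mouse and population, and sums were rounded. Since nothing shows how repeats were made, they count as 1 sample.

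LT minus MPP was fitted with edgeR 4.0.16 in R 4.3.3 (TMM, filterByExpr, quasi-likelihood F test, 2-sided, with mouse as a replicate block), and p-values were adjusted by Benjamini-Hochberg over all genes tested. The block rests on the labels, which give the populations the same mouse numbers. Names of the libraries in the count data hold a date or a prefix in place of a mouse number. These were matched to mice by the times and repeats that the labels give each mouse, so the block rests on this match too. Deviations from the population means correlated between LT and MPP of the same mouse at r = 0.14 to 0.69 across genes, which are not independent. For young mouse 1 and old mouse 2, r was higher with MPP of another mouse (0.156 and 0.260, against 0.141 and 0.180 with their own). The old against young test added the interaction of population and age. The comparison after 0 h used sums over the times at which a mouse had both populations. A further fit of 0 h and later samples together was added after seeing the data. Levels are TMM-scaled counts per 1e6 (CPM), and mouse ratios use log2(CPM + 1).

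Genes were named by a rule: the 6 markers of the populations, called genes, and members of 28 gene lists that were called or had the highest CPM. Genes called by both DESeq2 1.42.0 and limma 3.58.1 voom, and others named with values, were chosen after their values were seen. The samples, members and lists were chosen with earlier results of these data known. List members were matched by symbol or older symbol. No set test was run. The fits were tested on simulated data. Symbols with near-identical copies, such as the haemoglobins and MHC genes, may share reads. Reads carry no molecular identifiers. Figures were drawn with matplotlib.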

Additional observations from a re-analysis of the deposited data

Results flagged for a closer look

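Of 42 sets of 6 mice examined (ratios of called genes and markers, list medians, counts and detected genes), 3 held a mouse far from the other 5 by Dixon's test, where chance alone flags about 5% of sets. The median ratio of LT to MPP over mast cell and basophil genes was -2.33 in young mouse 3 and 0.25 to 0.78 in the other mice. It rests on 8 tested members, and the list's sum in young mouse 3 was 160 CPM in LT and 141 CPM in MPP. That sum was 732 to 2350 CPM in LT and 513 to 1723 CPM in MPP of the other mice. Over monocyte and macrophage genes the median ratio was -1.67 in young mouse 3 and 0.08 to 0.72 in the others. Over respiratory chain genes it was -0.56 in old mouse 2 and -0.20 to -0.05 in the others.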

How the results depend on the processing

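At 0 h edgeR called 5 genes, and the number depended on the tool and on the mice. DESeq2 called 147 (84 higher and 63 lower in LT) and limma voom with sample quality weights 244 (187 higher and 57 lower). Within edgeR, DESeq2's size factors gave 3 calls, no filter on low counts 8 and a mean of at least 5 CPM 3. The fit with no replicate block called 1, Tgm2. Adding ST gave 7 calls, and leaving out the granule genes, thinning each pair to the shallower sample or a robust spread gave 5 each. The deepest repeat in place of the sum, young mice only, the 3 mice with MPP labelled untreated and the 3 with MPP labelled LPS and Pam3csk4 gave 0 calls each (441, 428, 314 and 478 at an unadjusted p below 0.05). Leaving out 1 mouse gave 1 to 6 calls. Leaving out young mice 1 and 2, chosen after seeing the data, gave 3. The 5 genes kept their direction in all of the 21 alternatives run, with Tgm2 past the threshold in 17 of them, Sult1a1 in 11, Ramp1 in 10, Ptrf in 8 and Cd34 in 7. After 0 h, DESeq2 called 278 genes (184 higher in LT), the filter at 5 CPM 7, and the other alternatives, without the replicate block included, 0 each. Old against young gave 2 calls with DESeq2, 0 to 1 without 1 mouse (1 without old mouse 4, where the other old mouse is assumed to vary like the young ones), and 0 otherwise. The difference after 0 h against 0 h gave 7 calls with DESeq2 and 0 to 1 without 1 mouse. Of the other named genes, 3 turned. Meis1 was at -0.036 in the 3 mice with MPP labelled LPS and Pam3csk4, and Itgb3 at -0.38 with the deepest repeat. Kit, at -0.03 in edgeR, was at 0.0021 with DESeq2, 0.28 with limma voom, 0.0022 with DESeq2's size factors, 0.14 with no replicate block, 0.26 in the mice labelled untreated, 0.21 without young mice 1 and 2, and -0.18 to 0.090 without 1 mouse. The cause of these changes was not tested. The median log2 difference of all genes, -0.16 in edgeR, was -0.12 with DESeq2 or its size factors, 0.02 with limma voom and -0.28 with the deepest repeat. The depth of 1.90 to 11.8 counts in units of 1e6 per sample limits the precision for genes of low level.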
